A study of Mus musculus with 49 samples.

Results

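A set of 8 genes that mark the 2-cell-like state of mouse embryonic stem (mES) cells was followed by RNA-seq: the 5 Zscan4 copies Zscan4b, Zscan4c, Zscan4d, Zscan4e and Zscan4f, and Zfp352, Tcstv1 and Tcstv3. They were taken by symbol, and all 8 were found among the 20489 protein-coding genes of the tables. The 49 libraries form 16 groups in 4 experiments and hold 14422098 to 35185256 reads assigned to genes (median 19520026). The study asked how the p53 cofactor Trim24 affects the transcriptional response to p53.

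The mES cells were of the TC-1 line (129S6/SvEvTac), grown on gelatin in serum and LIF. In the tagged line, used in all but the wild-type experiment, both endogenous Trim24 alleles carried an FKBP12(F36V)-V5 tag, so that the compound dTAG13 (500 nM) removes the Trim24 protein. These tagged cells derive from picked clones, so the line is a limited genetic sample. p53 was activated with 1 µM doxorubicin, which damages DNA, and cells without Trim24 received dTAG13 over the whole doxorubicin treatment. The time course held untreated cells (0 h) and cells at 2, 4, 8 and 12 h of doxorubicin, with Trim24 present or degraded (n = 3 in each of the 9 groups). A second experiment compared uninduced tagged cells without doxorubicin, untreated or given dTAG13 for 4 h (n = 3 each). For the untreated libraries of that experiment, 1 label names active p53 against the title; the title was followed, and Mdm2, a p53 target, read 184 ± 5.54 CPM there and 181 ± 4.65 CPM at 0 h of the time course. The wild-type experiment held untagged cells, untreated or at 4 h of doxorubicin (n = 2 each). In the fourth, here called the RING experiment, all cells had 4 h of doxorubicin and n = 4: tagged cells with Trim24 present, tagged cells with Trim24 degraded, and a line in which endogenous Trim24 was edited to carry cysteine substitutions in the RING finger (LigNull in the titles), here called the RING mutant. Its genotype label gives degron-tagged Trim24, while its titles and the methods do not say that the edit was made in the tagged line, so a difference in tag or clone and the substitutions cannot be told apart. No library of the RING mutant without doxorubicin was analysed here, so a difference of that line at rest and a difference in its response cannot be told apart.

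In culture, a small and changing fraction of mES cells passes through a state that resembles the 2-cell embryo. The homeobox factor Dux, present in the tables as Duxf3, is a known activator of the state and switches on Zscan4, Zfp352, the Tcstv genes and MERVL repeats. Zscan4 proteins carry a SCAN domain and zinc fingers and are known for their part in telomere maintenance in mES cells; Zfp352 is a zinc finger gene of the early embryo; Tcstv1 and Tcstv3 belong to a variable group of transcripts of the 2-cell stage. In whole cultures, a change in the share of cells in the state and a change in RNA per cell cannot be told apart.

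The Zscan4 copies lie on chromosome 7 within a cluster (GRCm38, GENCODE M21 annotation): Zscan4b at chr7:10900740-10905050 (minus strand), Zscan4c at chr7:11005745-11010547 (plus), Zscan4d at chr7:11161374-11166159 (minus), Zscan4e at chr7:11306378-11310682 (minus) and Zscan4f at chr7:11397915-11402318 (plus). Zfp352 is at chr4:90218820-90225702 (plus), Tcstv1 at chr13:119893388-119894785 (minus) and Tcstv3 at chr13:120316878-120318178 (plus). RefSeq promoter sequences (GRCm38.p6) were matched for 5 of the 8 genes. The upstream sequences of 4 Zscan4 copies are shown because they are nearly the same, as are the transcripts whose reads had to be assigned. Each run has 216 bases, ends at the base before the first annotated start among the copies once aligned on a TATA box, and is given on the strand of its gene, at chr7:10905051-10905266 (minus), chr7:11005506-11005721 (plus), chr7:11166183-11166398 (minus) and chr7:11397699-11397914 (plus). Capitals mark the 12 positions at which the 4 copies differ.
Zscan4b: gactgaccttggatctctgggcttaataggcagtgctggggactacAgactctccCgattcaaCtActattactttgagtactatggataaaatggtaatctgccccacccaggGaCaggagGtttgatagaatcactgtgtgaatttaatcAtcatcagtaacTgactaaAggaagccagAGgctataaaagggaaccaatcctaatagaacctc
Zscan4c: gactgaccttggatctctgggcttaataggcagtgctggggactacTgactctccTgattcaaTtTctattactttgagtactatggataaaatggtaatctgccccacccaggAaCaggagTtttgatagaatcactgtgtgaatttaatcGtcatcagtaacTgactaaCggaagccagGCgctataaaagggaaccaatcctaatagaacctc
Zscan4d: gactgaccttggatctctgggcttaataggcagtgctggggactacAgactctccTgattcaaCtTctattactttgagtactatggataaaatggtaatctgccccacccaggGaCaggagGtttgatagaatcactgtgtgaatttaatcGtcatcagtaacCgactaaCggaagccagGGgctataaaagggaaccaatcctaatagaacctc
Zscan4f: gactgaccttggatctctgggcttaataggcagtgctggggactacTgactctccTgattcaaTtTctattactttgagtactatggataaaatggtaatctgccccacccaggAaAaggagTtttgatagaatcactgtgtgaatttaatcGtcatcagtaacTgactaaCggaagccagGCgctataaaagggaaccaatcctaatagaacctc
Zscan4c and Zscan4f differ at 1 position (99.5% identity), and the most distant pair, Zscan4b and Zscan4f, at 11 (94.9%). TATAAAA, the core of the TATA box, occurs once in the 300-base promoter entry of each of the 4 copies and in 5.482% of all 32851 such entries, on either strand.

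The upstream sequence of Zfp352 is shown for its repeats: 250 bases at chr4:90218570-90218819 on the plus strand, directly before the annotated start, with each TAATCC in capitals.
Zfp352: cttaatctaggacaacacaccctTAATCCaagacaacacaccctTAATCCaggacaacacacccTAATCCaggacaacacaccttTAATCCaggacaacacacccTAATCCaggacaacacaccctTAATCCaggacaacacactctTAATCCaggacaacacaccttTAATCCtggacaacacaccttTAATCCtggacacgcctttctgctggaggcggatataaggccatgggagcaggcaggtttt
The 6 letters TAATCC occur 9 times in this sequence, in 0 of the 4 Zscan4 entries and in 7.062% of all promoter entries on either strand, and no other entry holds as many. TAATCC is the kind of short homeodomain core that many homeobox factors recognise, and its matches are a description of letters, not of binding. A core of the mouse Dux motif, searched on both strands, was in 0 of the 5 matched entries and in 0.033% of all entries. The p53 response element was in 0 of the 5 entries and in 0.073% of all entries.

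Read assignment limits how far the Zscan4 copies can be separated. Of all 50-base stretches of the longest annotated transcript, 95.3% in Zscan4f, 91.6% in Zscan4e, 90.3% in Zscan4b, 85.5% in Zscan4c and 49.6% in Zscan4d also occurred in another annotated gene. For 100-base stretches the shares were still 89.5% in Zscan4f and 84.1% in Zscan4e, against 29.6% in Zscan4d. The shares were lower for Zfp352 (7.1% of 50-base stretches), Tcstv1 (16.8%) and Tcstv3 (31.4%). Since a read that matched several places was given to 1 of them at random, the sum over the 5 Zscan4 copies is given beside the single copies. The sum does not remove exchange of reads with genes outside the 5 copies, such as Zscan4-ps1, Zscan4-ps2 and Zscan4-ps3. Over the 16 groups, Zscan4c took 26.95% to 30.52% of the summed Zscan4 signal, Zscan4d 22.02% to 25.55%, Zscan4f 23.01% to 25.86%, Zscan4e 9.31% to 11.77% and Zscan4b 9.32% to 13.69%, the widest range for its level. The part of read assignment in these shares was not tested.

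**Figure D1:**
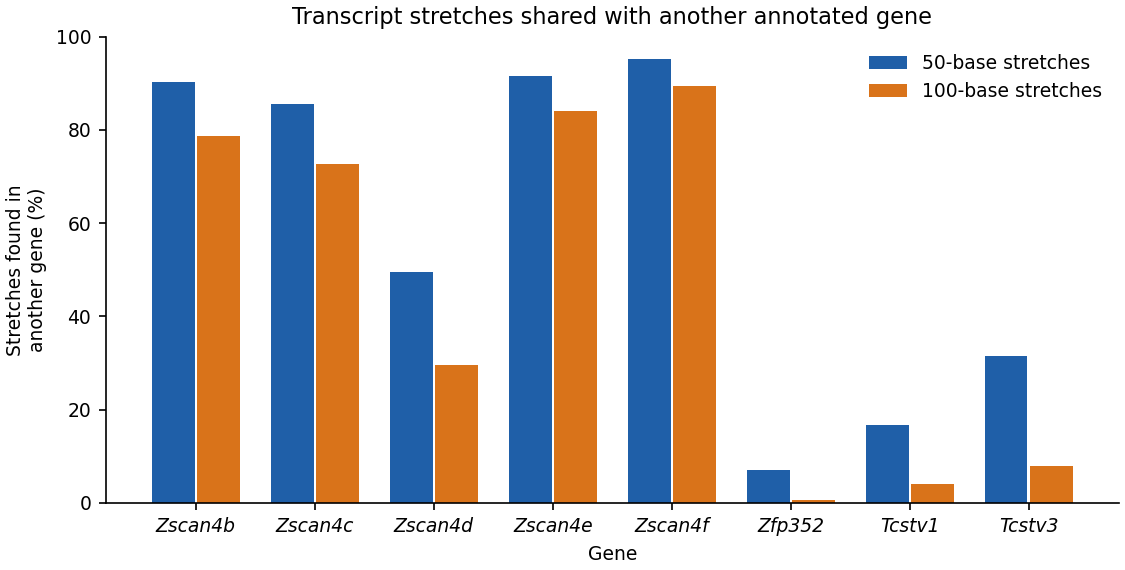
Percent of all 50-base and 100-base stretches of the longest annotated transcript (vertical axis) that also occur in another annotated gene, for each of the 8 genes (horizontal axis). The bars of Zscan4b, Zscan4c, Zscan4e and Zscan4f are high at both lengths, while Zfp352 is at 7.1% and 0.6%.

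Before p53 activation the genes were transcribed at low but measurable levels in the tagged line. Levels are given in CPM, the reads of a gene over the scaled reads of its library. Comparisons between genes are given as CPM per kilobase of exon, with the exons of all annotated transcripts of a gene merged. The summed Zscan4 level at 0 h was 49.8, 50.4 and 58.9 CPM in the 3 libraries. Tcstv1 was at 1.10, 1.23 and 1.46 CPM, Tcstv3 at 2.06, 2.79 and 3.39 CPM, and Zfp352 at 0.748, 0.883 and 0.934 CPM, the last from 15 to 18 reads a library. The order per kilobase was led by Zscan4c at 7.11 and Zscan4f at 6.74 CPM, followed by Zscan4d (5.53), Tcstv3 (3.53), Zscan4b (3.33), Zscan4e (2.83), Tcstv1 (0.902) and Zfp352 (0.376).

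The 2-cell-like genes rose late in cells given doxorubicin. At 8 h, 7 of the 8 genes had risen in cells with Trim24, and at 12 h all 8 had risen, by between 3.93 and 5.80 on the log2 scale. Calls were made with limma over all genes of a table and needed a Benjamini-Hochberg adjusted p under 0.01 together with a log2 change of 0.75 or more in either direction; log2 fold changes are on the deposited scale, whose prior count of 8 reads shrinks those of low genes, and folds given as ratios are of mean CPM without a prior count. At 12 h the median of the 8 genes was 4.30 against 0.04 over all genes tested, and 30.3% of all genes tested were called higher. The comparisons at the 4 times share the same 3 libraries at 0 h. No untreated library at 2, 4, 8 or 12 h was analysed here, so hours in culture and doxorubicin cannot be told apart.

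The summed Zscan4 level stayed close to the start for 4 h, at 47.8 ± 1.54 CPM at 2 h and 60.5 ± 3.20 CPM at 4 h (SD, n = 3). It then reached 169, 142.6 and 155.4 CPM at 8 h, above every library of the earlier times. At 12 h it was 1054, 954 and 927 CPM, from 17495 to 21865 reads a library, and no library overlapped with those at 8 h. The mean was 2.94 times that at 0 h at 8 h (log2 fold change 1.55, SE 0.07, limma adjusted p = 3.38e-42) and 18.5 times at 12 h (4.20, SE 0.07, adjusted p = 3.18e-18). The single copies lay between 2.68-fold and 3.22-fold at 8 h and between 16.4-fold (Zscan4c) and 22.7-fold (Zscan4e) at 12 h.

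Among the Zscan4 copies, per-library values at 12 h were 138.3, 138.7 and 125.4 CPM for Zscan4b, 289.2, 255.7 and 251.7 CPM for Zscan4c, and 235.6, 203.8 and 206.6 CPM for Zscan4d. Zscan4e was at 120.3, 119.8 and 105.8 CPM, and Zscan4f at 270.9, 236.0 and 237.6 CPM. Each of these was far above its own 0 h libraries, the highest of which was 17.9 CPM (Zscan4c). Per kilobase, Zscan4f (126.7 CPM) now led the copies, followed by Zscan4c (116.7), Zscan4d (94.8), Zscan4b (74.4) and Zscan4e (64.3).

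Tcstv1 and Tcstv3 had the highest folds of the 8 genes at 12 h, an order between genes that was not tested. Tcstv1 went from 1.26 ± 0.184 CPM at 0 h to 6.90, 5.33 and 7.82 CPM at 8 h and 96.8, 86.4 and 85.5 CPM at 12 h, a 71.0-fold higher mean (log2 fold change 5.80, SE 0.11, limma adjusted p = 8.75e-18). Tcstv3 went from 2.75 ± 0.664 CPM to 10.1 ± 1.55 CPM at 8 h and 123.3, 114.2 and 107.8 CPM at 12 h, a 41.9-fold higher mean (5.24, SE 0.13, adjusted p = 1.84e-14). For both genes every library at 12 h was above every library at 8 h, which in turn was above every library at 0 h. Tcstv3 had the highest level per kilobase of the 8 genes at 12 h, 147.8 CPM, and Tcstv1 was at 64.1 CPM.

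Zfp352 moved last. Its mean was 0.713 ± 0.287 CPM at 2 h, 0.854 ± 0.246 CPM at 4 h and 1.18, 0.801 and 1.36 CPM at 8 h, overlapping with the 0 h libraries (8 h: log2 fold change 0.26, SE 0.20, limma adjusted p = 0.223). At 12 h it was at 19.0, 18.1 and 17.1 CPM, from 323 to 393 reads, well clear of all earlier libraries (21.1-fold, 3.93, SE 0.13, adjusted p = 1.53e-14). Per kilobase it remained the lowest of the 8 genes, at 7.94 CPM.

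At 2 h, 0 of the 8 genes were called (1 at an unadjusted p under 0.05), where 3.07% of all genes tested were called higher. At 4 h, 0 of the 8 were called (3 at an unadjusted p under 0.05), where 12.9% of all genes were called higher; limma-voom also called 0 at both times. The 8 h share of called genes was 7 of 8 among these genes and 27% over all genes.

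The activator Duxf3 was called higher from 2 h on. It was at 0.499, 0.491 and 0.642 CPM at 0 h, and its mean was 1.48 ± 0.399 CPM at 2 h, 8.18 ± 0.462 CPM at 4 h, 50.8 ± 4.44 CPM at 8 h and 92.7 ± 2.06 CPM at 12 h. Its log2 fold changes at the 4 times were 1.01, 3.25, 5.83 and 6.69 (limma adjusted p = 0.00163 at 2 h and 1.03e-12 at 4 h). Between 4 and 8 h the mean of Duxf3 rose 6.21-fold and that of summed Zscan4 2.57-fold, and between 8 and 12 h Duxf3 rose 1.82-fold, summed Zscan4 6.29-fold, the Tcstv pair 12.2-fold and Zfp352 16.2-fold. These step ratios are descriptions and were not tested. The quotient of summed Zscan4 over Duxf3 was 91.6 to 103 in the 0 h libraries, 6.89 to 8.24 at 4 h, 2.78 to 3.52 at 8 h and 9.93 to 11.7 at 12 h. The 0 h quotient divides by only 0.491 to 0.642 CPM of Duxf3 and is imprecise. In the untreated tagged cells of the uninduced experiment it spanned 75.1 to 205.

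**Figure D2:**
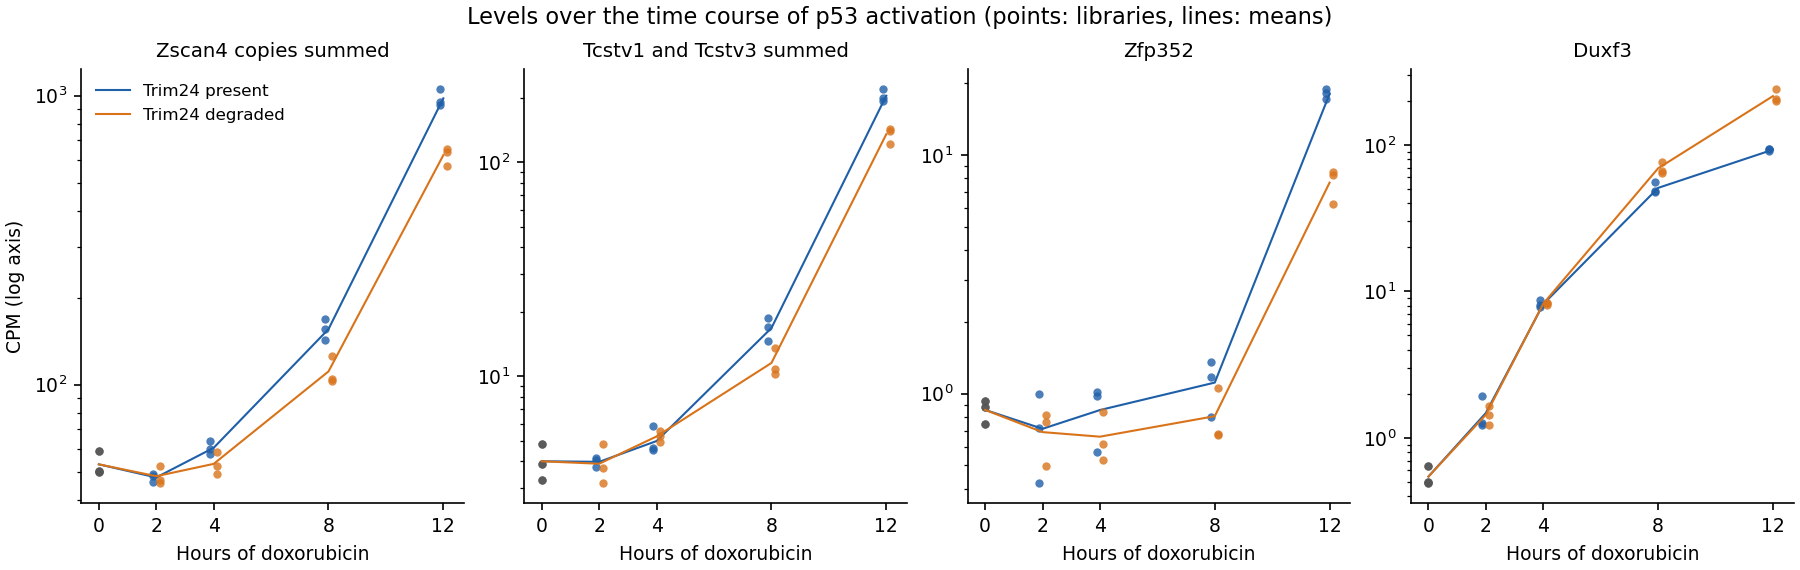
Levels in CPM (vertical axes, log scale) against hours of doxorubicin (horizontal axes) in the time course, with Trim24 present or degraded; points are libraries and lines connect group means. Zscan4 and the Tcstv genes leave their 0 h level at 8 h and climb to 12 h, Zfp352 leaves it only at 12 h, and Duxf3 is already higher at 2 h, as called in limma.

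The culture as a whole changed over the same hours. The summed level of 9 embryonic stem cell markers was 5182 to 5247 CPM at 0 h and 1072 to 1179 CPM at 12 h with Trim24 present. Over the same hours 7 fibroblast markers went from 15.5 to 18.6 CPM up to 45.0 to 56.7 CPM, 6 trophoblast markers from 34.5 to 36.9 CPM up to 97.4 to 104 CPM, and 6 primitive endoderm markers from 40.1 to 44.2 CPM down to 23.8 to 26.2 CPM. No marker was at 0 over all libraries, but 5 of the 7 fibroblast and 3 of the 6 trophoblast markers averaged under 1 CPM. Those 2 sums thus rest on few genes. The part of these shifts in the rise of the 2-cell-like genes was not tested.

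Other genes of the 2-cell-like state mostly followed. Of 25 listed, 24 were in the tables (Zscan4a was not), and with Trim24 present 0 of 19 tested were called higher at 2 h, 1 of 20 at 4 h, 16 of 23 at 8 h and 19 of 24 at 12 h. The median over the list was 3.83 at 12 h. The largest rises at 12 h were those of Tmem92, a membrane protein gene (log2 fold change 6.12, SE 0.10), Tdpoz3 (5.86, SE 0.14), AF067061 (5.79, SE 0.12), the deubiquitinase gene Usp17le (5.60, SE 0.10), BC080695 (5.59, SE 0.12) and Usp17la (4.83, SE 0.15), all at limma adjusted p values of 1.3e-14 or below. The 1 gene called higher at 4 h was Sp110, a nuclear body protein gene (1.08, SE 0.22, adjusted p = 0.00034).

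A group of 4 listed genes was called lower from 4 h on, of 20 tested at 4 h, 23 at 8 h and 24 at 12 h. Over all genes tested, 5.8%, 18.3% and 22.9% were called lower at these times. At 12 h, Pramel6 and Pramel7, leucine-rich repeat genes of naive mES cells, fell by 2.98 and 2.59 on the log2 scale, Zscan5b by 2.97 and the translation initiation factor gene Eif1a by 1.48. They fell over the same hours as the stem cell markers above.

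Of 10 listed activators of the state, 9 were tested, and Duxf3 was the 1 called higher at each time. At 12 h, 7 of the 9 were called lower, where 22.9% of all genes tested were, among them the nuclear receptor Nr5a2 (-5.60), the T-box factor Tbx3 (-2.90), the maternal factor Dppa3 (-1.83), Dppa4 (-1.70) and the zinc finger factor Patz1 (-1.69). Of the 18 listed repressors, 0 were called higher and 4, 13 and 12 were called lower at 4, 8 and 12 h, against 5.8%, 18.3% and 22.9% of all genes tested. The largest falls at 12 h were those of the RNA-binding protein Lin28a (-5.34), Zfp42 (-4.65), the transcription factor Myc (-2.68), the corepressor Trim28 (-2.29), Rif1 (-1.52) and Max (-1.50). Several of these are themselves stem cell genes.

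The 10 genes outside the 8 whose log2 values most resembled the mean of the 8 over the 27 time-course libraries were Zscan4-ps2, Zscan4-ps3 and Zscan4-ps1 (Pearson r = 0.998, 0.998 and 0.997), AF067061 (0.995), Usp17lb (0.995), Spopfm1 (0.994), Usp17lc (0.992), Spz1 (0.992), Tdpoz3 (0.992) and Trim75 (0.991), of 19239 genes ranked. The libraries fall into groups by time, so r describes the shape of the time course. The 3 genes named ps carry Zscan4 sequence. From 42.2% (Zscan4d) to 90.3% (Zscan4f) of the 50-base stretches of a copy also occurred in them, so they could share many reads with the copies. At 12 h with Trim24 the 3 ps genes rose by 4.28 (Zscan4-ps1), 4.07 (Zscan4-ps2) and 4.20 (Zscan4-ps3) on the log2 scale. AF067061 shares some 50-base stretches with Tcstv1 and Tcstv3, though no 100-base ones, so it too could share reads with them.

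With Trim24 degraded, the 2-cell-like genes rose at the same times but to lower levels. In these cells 7 of the 8 genes were called higher at 8 h (27.7% of all genes tested) and 8 of 8 at 12 h (30.7%), by 2.72 to 5.22 on the log2 scale at 12 h. At 2 h (4.33% of all genes) and 4 h (13.9%) 0 of 8 were called, with 1 and 1 at an unadjusted p under 0.05 and 0 by limma-voom. At 8 h Zfp352 was not called (log2 fold change -0.07, SE 0.21, limma adjusted p = 0.746). Under quantile normalization, an alternative scaling, 4 of the 8 were called higher at 8 h, since Zscan4e, Tcstv1 and Tcstv3 fell short of the fold threshold (0.725, 0.689 and 0.748), and Zfp352 was called lower (-0.92).

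Of the other genes of the state, 11 of 23 tested were called higher in degraded cells at 8 h and 17 of 24 at 12 h, with a median of 3.36 at 12 h. Of the activators Duxf3 alone was called higher at each time, and of the 18 repressors 13 were called lower at both 8 and 12 h, against 19.7% and 22.5% of all genes tested.

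Summed Zscan4 in degraded cells was at 48.2 ± 3.57 CPM at 2 h and 53.2 ± 4.65 CPM at 4 h. It was at 102.8, 104.7 and 125.8 CPM at 8 h and 570, 640 and 655 CPM at 12 h. At both later times all 3 libraries lay below all 3 with Trim24 present, and the 12 h mean was 63.6% of that with Trim24. Tcstv1 at 12 h was at 53.6, 63.1 and 63.4 CPM (67.0% of the mean with Trim24) and Tcstv3 at 68.0, 80.2 and 77.3 CPM (65.3%). Zfp352 at 12 h was at 6.23, 8.50 and 8.29 CPM from 129 to 184 reads, or 42.5%. For all 8 genes at 12 h, each library of degraded cells was below each library with Trim24. The share of all genes separated in this way was not computed. By the stricter rule of the calls, 1 of the 8 genes was lower in that comparison, as were 1.41% of all genes tested.

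The direct comparison of degraded with present Trim24 called 0 of the 8 genes in the first 4 h. At 2 h, 0 of the 8 genes were called (0.338% of all genes in either direction), with log2 fold changes between -0.05 and 0.04 and 0 at an unadjusted p under 0.05. At 4 h, 0 of 8 were called (1.15% of all genes), with values between -0.30 and 0.19 and 2 at an unadjusted p under 0.05, and summed Zscan4 differed by -0.19 (SE 0.07, limma adjusted p = 0.068).

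At 8 h the genes were lower by less than the fold threshold. Of the 8 genes 0 were called lower (0.448% of all genes), but 7 passed the adjusted p alone, all lower (4.13% of all genes), with log2 fold changes between -0.65 (Tcstv1) and -0.39 (Zscan4b); this looser count was added after the values were seen. Summed Zscan4 differed by -0.49 (SE 0.09, limma adjusted p = 5.58e-07) and Zfp352 by -0.34 (SE 0.22, adjusted p = 0.38). Without the second library of cells with Trim24 at 8 h, Tcstv1 was called lower, at -0.80.

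At 12 h Zfp352 was called lower (log2 fold change -1.21, SE 0.11, limma adjusted p = 1.99e-08), where 1.41% of all genes were. All 8 genes passed the adjusted p alone and were lower (11.5% of all genes). The other 7 lay between -0.56 (Zscan4d) and -0.70 (Zscan4b), just short of the fold threshold, with adjusted p values up to 2.85e-06. Summed Zscan4 differed by -0.65 (SE 0.07, adjusted p = 9.08e-08) and the Tcstv pair by -0.60 (SE 0.07, adjusted p = 6.34e-07).

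Whether the effect of Trim24 loss changed with time was tested as a difference of differences against 4 h. Degraded cells had dTAG13 for as long as doxorubicin, so hours of activation and hours without Trim24 cannot be told apart. At 12 h minus 4 h, Zfp352 (-0.97, SE 0.23, limma adjusted p = 0.0039) and Tcstv3 (-0.81, SE 0.15, adjusted p = 0.000432) were called lower, where 1.28% of all genes were. At the adjusted p alone 7 of the 8 were lower (6.68% of all genes), and Tcstv1 was not (-0.44, adjusted p = 0.0332). Summed Zscan4 differed by -0.47 (SE 0.09, adjusted p = 0.000806). The count of 2 rested on single libraries: it was 0 without the third library of cells with Trim24 at 4 h, and 0 without the first library of degraded cells at 12 h. It was 1 without the second library with Trim24 at 4 h, the first with Trim24 at 12 h or the first degraded library at 4 h. Under 6 other settings of the fit it was 1 or 0. Zfp352 did not pass in limma-voom (-0.88, limma-voom adjusted p = 0.108), and Tcstv3 fell short of the fold threshold under quantile normalization (-0.746). At 2 h minus 4 h and 8 h minus 4 h, 0 of 8 were called in either direction (0.0485% and 0.113% of all genes), with 1 and 5 at an unadjusted p under 0.05.

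**Figure D3:**
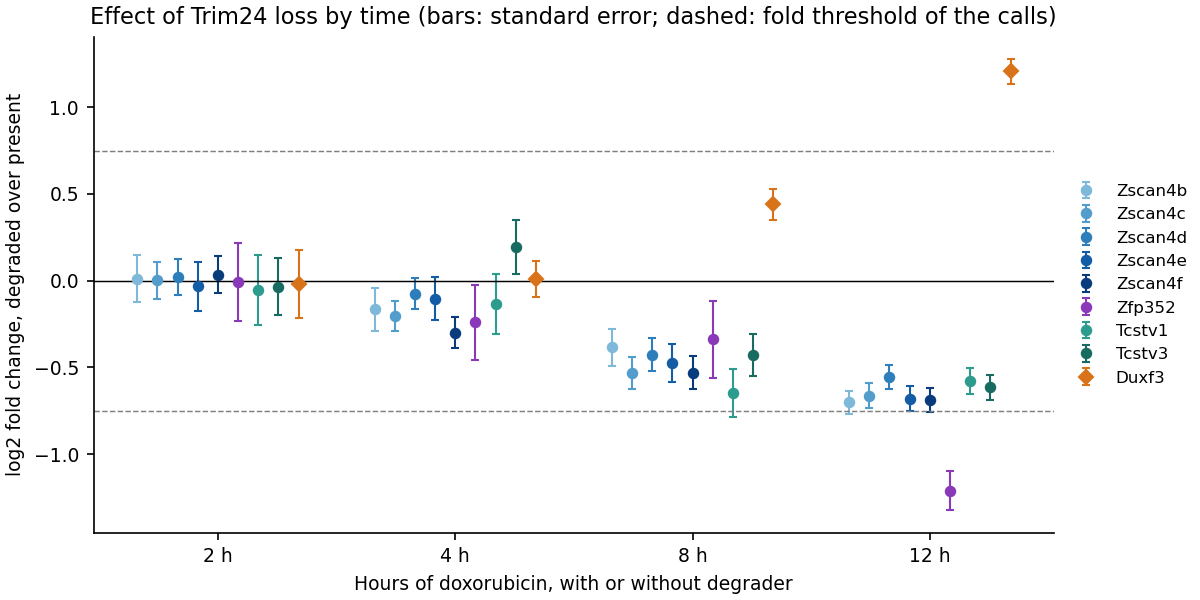
Log2 fold change of degraded over present Trim24 (vertical axis) by hours of doxorubicin (horizontal axis) for the 8 genes and Duxf3; bars are standard errors and dashed lines the fold threshold. The 8 genes lie near 0 at 2 h and below 0 at 12 h, between -0.56 and -1.21, while Duxf3 is at 1.21.

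Duxf3 moved the opposite way under Trim24 loss. It did not pass the test at 2 h (log2 fold change -0.02, SE 0.20) or 4 h (0.01, SE 0.10). At 8 h it was at 64.5, 66.2 and 76.8 CPM in degraded cells against 48.0, 48.6 and 56.0 CPM with Trim24 (0.44, SE 0.09, limma adjusted p = 2.84e-05, below the fold threshold). At 12 h it was at 204, 241 and 200 CPM against 90.4, 94.4 and 93.3 CPM (1.21, SE 0.07, adjusted p = 4.09e-12), and the difference of differences against 4 h was 1.20 (SE 0.10, adjusted p = 1.1e-08). The 12 h mean in degraded cells was 232% of that with Trim24, where the summed Zscan4 mean was 63.6%. The quotient of summed Zscan4 over Duxf3 was 2.66 to 3.27 in degraded libraries at 12 h and 9.93 to 11.7 with Trim24.

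Among the other genes of the state, values under Trim24 loss at 12 h ranged from -0.83 to 0.37. At 12 h 1 of 24 was called lower (1.41% of all genes), Spz1, a spermatogenic transcription factor gene (log2 fold change -0.83, SE 0.13). At 8 h it was 1 of 23 (0.448% of all genes), Tdpoz3 (-0.81). At 2 h and 4 h 0 were called, where 0.338% and 1.15% of all genes were called in either direction. The median over the list at 12 h was -0.39. Genes that had risen as strongly as the Tcstv pair gave values near 0, with Tmem92 at -0.07 (SE 0.07, limma adjusted p = 0.467), Usp17le at -0.13 (SE 0.10) and BC080695 at 0.09 (SE 0.09), whereas AF067061 was at -0.49 and Tdpoz3 at -0.67, both past the adjusted p alone. In the difference of differences at 12 h, Spz1 (-1.05) and Tdpoz3 (-0.90) were called lower, 2 of 24 tested, where 1.28% of all genes were.

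Among the activators, Patz1 was called higher beside Duxf3 under Trim24 loss at 12 h (0.95; 2.7% of all genes were called higher), and Nr5a2 (0.93) and Patz1 (0.89) in the difference of differences (2.22% of all genes called higher). Of the repressors, Myc alone was called, lower by 1.00 at 4 h, 1.67 at 8 h and 1.41 at 12 h on the log2 scale. Mean Myc levels at 4, 8 and 12 h were 53.3, 14.4 and 11.2 CPM with Trim24 and 26.5, 4.27 and 3.96 CPM without, from 72.9 CPM at 0 h. At 12 h the fibroblast markers summed to 41.9 to 44.3 CPM and the primitive endoderm markers to 34.8 to 39.3 CPM in degraded cells, against 45.0 to 56.7 and 23.8 to 26.2 CPM with Trim24, while the stem cell markers overlapped. Their part in the difference was not tested.

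Trim24 RNA does not measure the degradation, which acts on the protein. It was at 210.6 CPM at 0 h and 69.7 CPM at 12 h with Trim24 present (log2 fold change -1.59) and was not called in the comparison of degraded with present at 12 h (0.15). The p53 targets Mdm2 (2.69) and Cdkn1a (1.69) were called higher at 12 h.

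Without doxorubicin, loss of Trim24 for 4 h gave no called change in the 2-cell-like genes. Longer loss without doxorubicin was not analysed here. Of the 8 genes 0 were called in either direction (0.0781% of all genes; 0 of 8 at an unadjusted p under 0.05 in limma, and 0 called by limma-voom), with log2 fold changes from -0.17 (Tcstv1) to 0.32 (Zfp352). Summed Zscan4 was at 40.7, 46.0 and 39.5 CPM in untreated and 40.5, 45.7 and 49.1 CPM in degraded libraries, which overlap (0.10, SE 0.08, limma adjusted p = 0.832). Duxf3 was at 0.361 and 0.238 CPM on average, from 2 to 12 reads a library, and 0 of the listed other 2-cell-like genes, activators and repressors were called. Primitive endoderm markers summed to 473 to 546 CPM in this experiment, against 40.1 to 44.2 CPM at 0 h of the time course.

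Wild-type cells at 4 h of doxorubicin showed no called change in the 8 genes either. Of the 8 genes 0 were called, where 7.99% of all genes were called higher (1 of 8 at an unadjusted p under 0.05 in limma, and 0 called by limma-voom). Summed Zscan4 was at 241.7 and 216.2 CPM in untreated and 265.9 and 238.8 CPM in activated libraries, which overlap (log2 fold change 0.14, SE 0.09, limma adjusted p = 0.202). Zfp352 was at 6.66 and 6.74 CPM in untreated and 6.40 and 6.05 CPM in activated libraries (-0.10, SE 0.13, adjusted p = 0.587). Duxf3 rose from 0.701 to 7.73 CPM (2.94, SE 0.17, adjusted p = 6.15e-63). Of the other listed 2-cell-like genes, Zscan5b (-0.88) and Pramel6 (-0.81) were called lower (2.27% of all genes), as at 4 h in the tagged line.

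The untreated wild-type cells stood above the untreated tagged cells in all 8 genes. The mean of summed Zscan4 was 4.32 times that at 0 h of the time course, that of the Tcstv pair 4.49 times and that of Zfp352 7.84 times, whereas Duxf3 was at 1.29 times. The untreated cells of the uninduced experiment, a separate set of tagged cells, had 42.1 ± 3.49 CPM of summed Zscan4. Line and experiment cannot be told apart, so these ratios were not tested. Placed in order over all 16 groups, summed Zscan4 was highest at 12 h with Trim24, then at 12 h without it, then in the wild-type groups, which overlap with each other, then at 8 h with Trim24 and in the groups of the RING experiment with an unedited RING finger, which overlap, then at 8 h without Trim24. The remaining groups of the tagged line overlap with their neighbours down to the RING mutant, which was lowest and overlapped with none. For Zfp352, 12 h with Trim24 was highest, and 12 h without it overlapped with untreated wild-type cells.

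**Figure D4:**
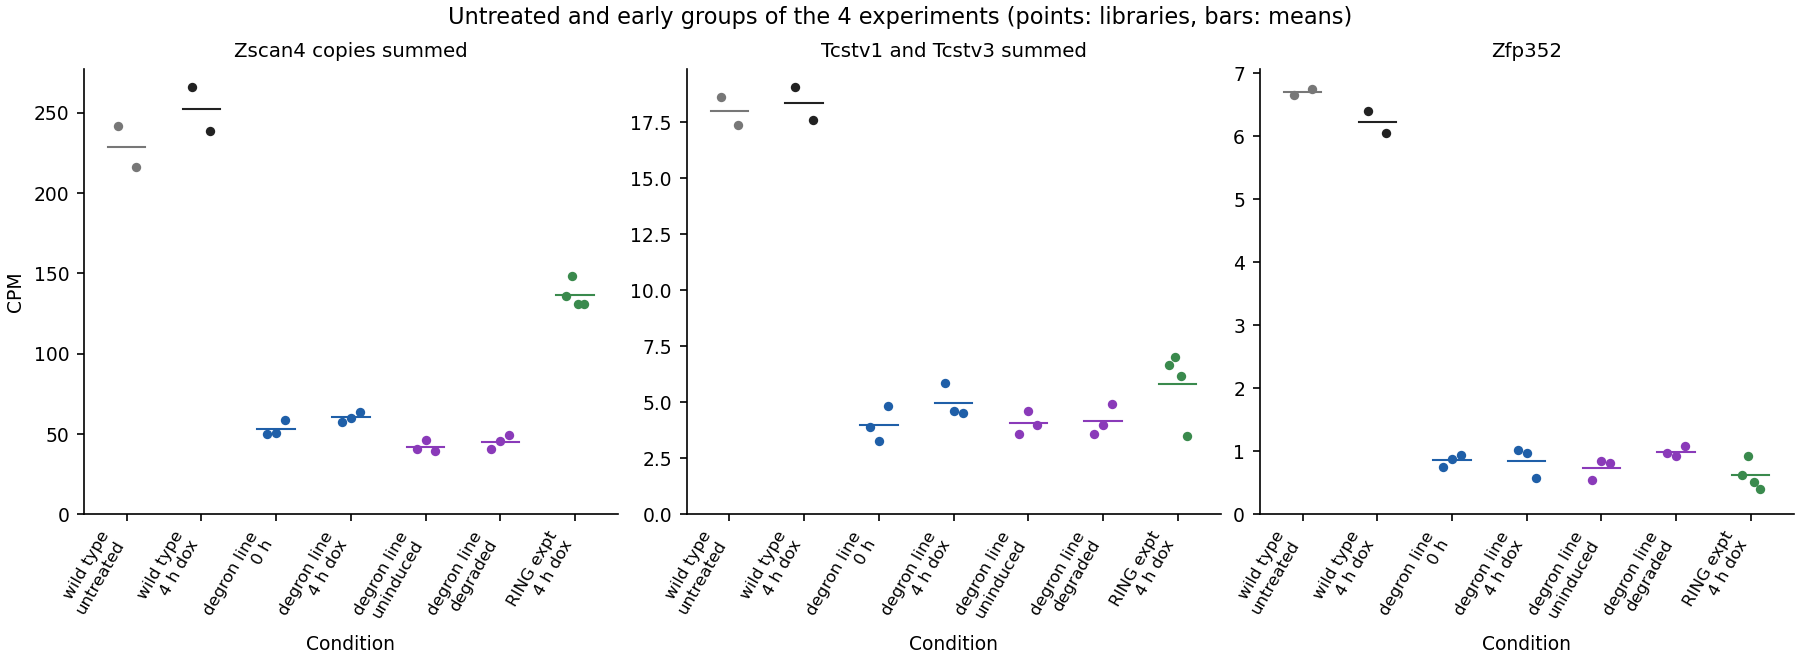
Levels in CPM (vertical axes) of groups without doxorubicin or at 4 h of it, in the 4 experiments (horizontal axes); points are libraries and bars are means. Wild-type cells stand above the tagged line in summed Zscan4, the Tcstv pair and Zfp352, as untreated means of 229 and 53.01 CPM show for Zscan4.

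The RING mutant carried far less RNA of the 2-cell-like genes than cells with an unedited RING finger at the same 4 h of doxorubicin. Summed Zscan4 was at 135.8, 148.4, 130.8 and 131.1 CPM with Trim24 present and at 156.0, 145.9, 144.2 and 143.1 CPM with Trim24 degraded. In the RING mutant it was at 26.2, 29.9, 23.9 and 24.99 CPM, 19.2% of the mean with Trim24, and no library came near the others. Single copies were at 0.168 to 0.197 times their mean with Trim24.

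Of the 8 genes, 7 were called lower in the RING mutant than in cells with Trim24 (2.28% of all genes) and 8 of 8 lower than in degraded cells (1.85%). Summed Zscan4 differed by -2.37 (SE 0.07, limma adjusted p = 1.88e-24) and -2.48 (SE 0.06, adjusted p = 1.02e-24). The single copies lay between -2.21 and -2.42 against cells with Trim24, Tcstv1 was at -1.06 and Tcstv3 at -1.38. Tcstv1 was at 1.83 ± 0.404 CPM with Trim24, 2.13 ± 0.260 CPM degraded and 0.683 ± 0.0775 CPM in the RING mutant, and Tcstv3 at 4.01 ± 1.27, 3.95 ± 0.494 and 1.27 ± 0.234 CPM (SD, n = 4). Zfp352 was at 0.618 ± 0.221 and 0.717 ± 0.0693 CPM with Trim24 present and degraded and at 0.326, 0.415, 0.1 and 0.0943 CPM in the RING mutant, from 2 to 8 reads. It did not pass against cells with Trim24 (-0.74, SE 0.25, adjusted p = 0.0174) and passed against degraded cells (-0.90, SE 0.21, adjusted p = 0.000834).

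Degradation of Trim24 at 4 h made no called difference here, as in the time course. Of the 8 genes 0 were called in either direction (1.15% of all genes), with log2 fold changes between 0.03 and 0.20 and 1 at an unadjusted p under 0.05 in limma (limma-voom called 0). Summed Zscan4 differed by 0.11 (SE 0.05, adjusted p = 0.114), and the libraries of the 2 groups overlap. The level with Trim24 present at 4 h, 136.5 ± 8.26 CPM, was 2.26 times the 60.5 ± 3.20 CPM at 4 h of the time course, while the Tcstv pair was at 1.17 times and Zfp352 at 0.72 times; the tables differ and this was not tested.

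**Figure D5:**
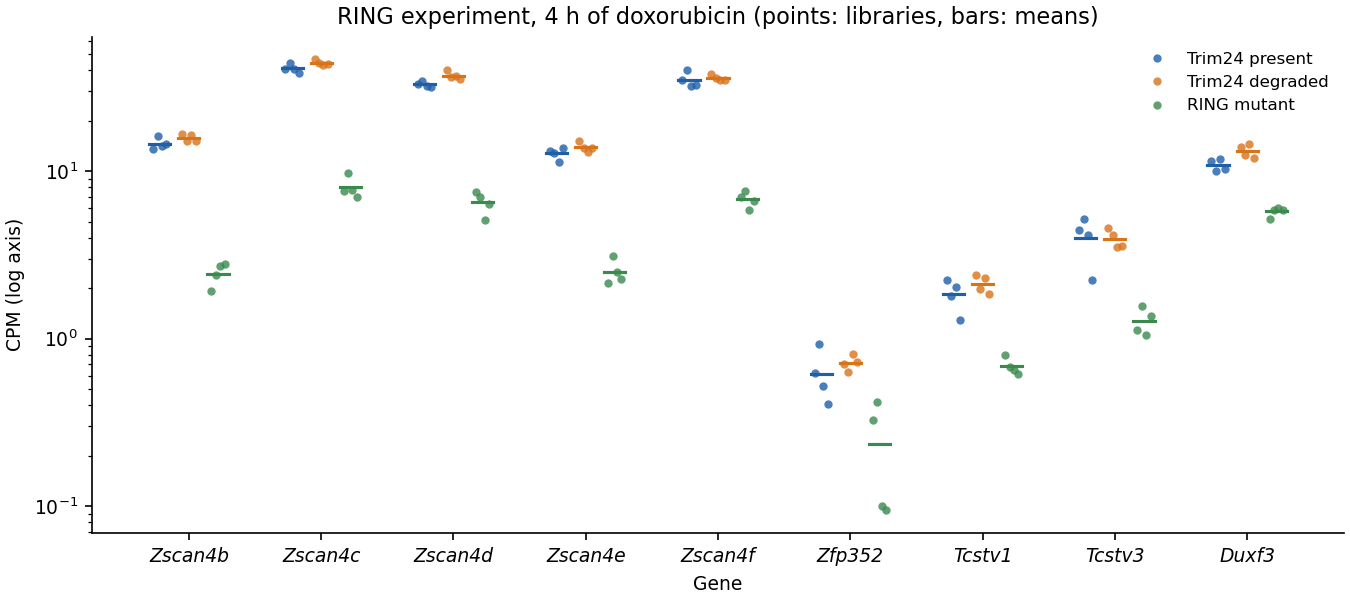
Levels in CPM (vertical axis, log scale) of the 8 genes and Duxf3 (horizontal axis) in the RING experiment; points are the 4 libraries of a group and bars their means. The RING mutant lies below both other groups for each Zscan4 copy, at 19.2% of the mean with Trim24 for their sum.

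Related genes moved with them in the RING mutant. Of 20 other 2-cell-like genes tested, 9 were called lower against cells with Trim24 and 10 against degraded cells, with a median of -0.76 in the first comparison. The largest were Tmem92 (-1.79), AF067061 (-1.38), Usp17le (-1.26), BC080695 (-1.24), Usp17la (-1.18) and Usp17ld (-1.15). Duxf3 was at 10.9 ± 0.902 CPM with Trim24, 13.2 ± 1.19 CPM degraded and 5.75 ± 0.391 CPM in the RING mutant, and was called lower in both comparisons (-0.88, SE 0.10, limma adjusted p = 2.21e-08, and -1.15, SE 0.10). Dppa3 was called higher against cells with Trim24 (1.25), and 0 of the 18 repressors were called. Under degradation alone Myc (-0.95) and Ncl, the gene of nucleolin (0.77), were called, and 0 of the other 2-cell-like genes.

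Over the 12 RING libraries, the genes closest to the mean of the 8 were Zscan4-ps2 (Pearson r = 0.997), Sohlh2 (0.996), Clgn (0.996), Zscan4-ps3 (0.995), Zscan4-ps1 (0.994), Stra8 (0.991), Myo1f (0.991), Rpl39l (0.991), A2m (0.991) and Dazl (0.991), of 19251 genes ranked. The libraries fall into the mutant and the other groups, so r mainly describes the difference between these. Sohlh2, Stra8 and Dazl are genes of germ cell development. Besides the Zscan4-ps genes, no gene was among the 10 closest in both experiments.

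Markers of other cell types differed between these lines as well. Primitive endoderm markers summed to 10.2 to 12.9 CPM with Trim24, 14.7 to 16.9 CPM degraded and 72.4 to 79.7 CPM in the RING mutant, and trophoblast markers to 27.1 to 31.0, 32.8 to 36.3 and 41.4 to 46.1 CPM. Fibroblast markers summed to 20.2 to 23.8 CPM with Trim24 and 8.50 to 10.7 CPM in the RING mutant, while stem cell markers overlapped, within 2529 to 2888 CPM in all 12 libraries. The part of these differences in the lower level of the 2-cell-like genes was not tested.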

How the data were processed

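Total RNA of 49 mES cell libraries was sequenced (TruSeq stranded kit). The authors mapped reads with STAR to mm10, giving a read with several matches to 1 place at random, and counted them with featureCounts, without strand, per protein-coding gene name. They deposited 4 tables of log2 CPM, scaled by edgeR TMM factors with a prior count of 8, per the file headers and labels. Reads were recovered from these values (100% whole within 0.01; TMM factors 0.8855 to 1.3073) and used for CPM levels and limma-voom. Without strand, overlapping antisense RNA cannot be told apart.

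Differences were fitted with limma 3.58.1 in R 4.3.3 (lmFit, eBayes with trend and robust) on the deposited log2 values of all genes that passed the filter, with only the groups compared in a fit, and Benjamini-Hochberg adjustment over all genes tested; a family sum was added to the table as a row. The fit was also run on simulated reads, only for Trim24 loss at 12 h and for the RING mutant against cells with Trim24. Genes with few reads were not among those changed in the simulation, and differences of differences were not simulated. A gene was kept if it lay at least 0.5 above the lowest log2 value (-1.48) in a number of libraries equal to the size of the smaller group; all 8 genes passed in each comparison. Calls needed an adjusted p under 0.01 together with a log2 change of 0.75 or more in either direction. The 8 genes, the 3 lists of related genes and the markers were chosen with earlier results of these data known. Beyond the 8, the text names listed genes called in a comparison (up to 6 a list by size), the 10 most similar by Pearson r in each of 2 experiments, and Trim24, Mdm2 and Cdkn1a; values of other named genes, such as those not called, were chosen after being seen. The study names the libraries biological replicates. The p-values rest on a variance that limma draws toward a trend over all genes, not only on a gene's own few libraries. In some fits, among them wild-type cells and Trim24 loss at 8 h, they rest almost wholly on that trend. The size of a p-value is therefore not comparable between comparisons. Same-numbered replicates did not pair: no comparison had a correlation of deviations over 0.1 in every pair. Alternatives were quantile normalization, limma-voom, no filter, a prior count of 1, no trend or robust fit, all groups in the fit, a replicate block and leaving out each library.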

Additional observations from a re-analysis of the deposited data

Results flagged for a closer look

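The effect of Trim24 loss on Zfp352 differed between 12 h and 4 h of activation by -0.97 on the log2 scale (SE 0.23, limma adjusted p = 0.0039), as tested by the difference of differences. The same test gave -0.81 for Tcstv3 (SE 0.15, adjusted p = 0.000432). Neither call held under all alternatives. Zfp352, with 10 to 21 reads a library at 4 h with Trim24, did not pass in limma-voom (adjusted p = 0.108). It also missed without trend and robust, with a prior count of 1, all groups in the fit or no filter, and without some single libraries. Tcstv3 missed under quantile normalization (-0.746), without trend and robust (limma adjusted p = 0.0144) and without some single libraries. In degraded cells Zfp352 was lower in 3 of 3 libraries than in any with Trim24 at 12 h, and so was Tcstv3. The share of all genes separated in this way was not computed. In the 30 tests of a far library over genes or sums in groups of 4 libraries, 0 were found, where chance gives about 1 in 20.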

How the results depend on the processing

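The direction of every called value of the 8 genes and the family sums was kept under all alternatives run. Calls of the other named genes, such as Duxf3, were not compared between alternatives. The calls at 12 h of activation (8 of 8 genes with and without Trim24) and those of the RING mutant for Zscan4, Tcstv1 and Tcstv3 were kept throughout. The number of the 8 genes called in the effect of Trim24 loss at 12 h minus 4 h moved most: it was 2, and 1 under limma-voom, quantile normalization, no filter, all groups in the fit or a prior count of 1, 0 without trend and robust, and 0 to 2 when single libraries were left out. At 8 h with Trim24 degraded, quantile normalization called 5 of the 8 genes in place of 7 (4 higher, and Zfp352 lower at -0.92), and shifted the median of all genes by -0.12 at 8 h with Trim24, and at 12 h by -0.15 with Trim24 and -0.14 without. Under it the share of all calls that were higher at 2, 4, 8 and 12 h was 71.2%, 54.4%, 47.6% and 46.9% with Trim24, in place of 81.9%, 69.0%, 59.6% and 56.9%. Without Trim24 it was 69.0%, 51.5%, 47.1% and 47.3% in place of 79.9%, 66.3%, 58.5% and 57.8%. It was 61.3% in place of 77.9% in wild-type cells and 60.4% in place of 72.4% for the RING mutant against degraded cells. The cause was not tested. At 8 h, 0 to 1 of the 8 genes were called under Trim24 loss with single libraries left out. The Tcstv pair at 12 h minus 4 h was at -0.67, and between -0.79 and -0.60 with single libraries left out. With a replicate block the count of the 8 genes called was the same in the 18 comparisons that allowed one (7 at 8 h, 8 at 12 h and 2 at 12 h minus 4 h), and no call of the 8 genes or the family sums changed. The comparisons with the RING mutant share too few replicate numbers for a block, and the pairing was not borne out by the libraries. Zfp352 in the RING mutant against cells with Trim24 passed under quantile normalization (-0.87) and without 1 of 2 libraries (-0.84 and -0.88). Adding the 3 Zscan4-ps genes to the Zscan4 sum, chosen after seeing the data, gave 20 of 20 results on the same side of the threshold. Over all genes, leaving out the filter on low genes gave 120 in place of 476 higher calls at 2 h with Trim24 and 232 in place of 676 without, and for Trim24 loss 0 in place of 53 at 2 h, 116 in place of 186 at 4 h and 0 in place of 12 in uninduced cells. Without trend and robust, Trim24 loss gave 23 calls at 2 h, 90 at 4 h, 38 in place of 78 lower calls at 8 h and 0 in uninduced cells. The differences of differences at 2 and 8 h against 4 h, with 8 and 20 calls, gave 2 and 8 without the filter, 1 and 6 without trend and robust, and 13 at 2 h with all groups in the fit. The 383 higher calls at 12 h against 4 h were 249 without trend and robust, and the 373 lower calls in wild-type cells were 570 under quantile normalization. Reads were fewest for Zfp352, with 2 to 8 in the RING mutant, which limits its precision.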
